A study of Mus musculus with 20 samples.

Results

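The endoplasmic reticulum chaperones described here are 10 genes, Hspa5, Hsp90b1, Pdia4, Pdia6, Dnajb9, Sdf2l1, Creld2, Manf, Hyou1 and Herpud1, picked by symbol from a liver table of 48440 genes, and each of the 10 symbols was found in 1 row. All of them passed the filter on low counts, together with 16071 genes in all. The levels come from RNA sequencing of whole, flash-frozen liver of 20 wild-type female C57BL/6 mice (C57BL/6J in the study's methods) that were 8 weeks old, with 5 mice in each group. Isotype + Vehicle mice received an IgG2a control antibody and vehicle, and Isotype + CORT mice received the same control antibody with corticosterone (CORT), the main glucocorticoid of rodents, in the drinking water. In the αACBP + Vehicle and αACBP + CORT groups, the control antibody was replaced by a monoclonal antibody that neutralizes ACBP, the acyl coenzyme A binding protein that Dbi encodes, again without or with CORT. Every mouse was thus injected intraperitoneally with an antibody, and livers were taken at the end of 5 weeks. The study asked whether neutralizing ACBP prevents the metabolic consequences of excess glucocorticoid, and the comparisons here ask how the chaperone transcripts of the liver differed between these groups.

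Proteins destined for secretion or for membranes fold in the endoplasmic reticulum, and hepatocytes, which make most plasma proteins, carry a heavy folding load. Unfolded proteins in this compartment activate the sensors IRE1 (Ern1), PERK (Eif2ak3) and ATF6 (Atf6), whose signalling is called the unfolded protein response (UPR) and raises the transcription of chaperones, folding enzymes and degradation factors. Hspa5 (ENSMUSG00000026864.13) encodes BiP, the HSP70-type chaperone of the compartment, and Hsp90b1 (ENSMUSG00000020048.13) encodes GRP94, its HSP90-type chaperone. BiP works with partners, among them the J-domain co-chaperone encoded by Dnajb9 (ENSMUSG00000014905.3) and the HSP110-type nucleotide exchange factor encoded by Hyou1 (ENSMUSG00000032115.13). Pdia4 (ENSMUSG00000025823.9) and Pdia6 (ENSMUSG00000020571.12) encode protein disulfide isomerases. Sdf2l1 (ENSMUSG00000022769.7), Creld2 (ENSMUSG00000023272.3) and Manf (ENSMUSG00000032575.16) encode smaller soluble proteins of the compartment that are induced by the UPR, and MANF binds BiP and can be secreted. Herpud1 (ENSMUSG00000031770.15) is not a chaperone: it encodes a membrane protein that takes part in the degradation of misfolded proteins.

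Promoter sequence is shown for those of these genes in which an element through which ATF6 acts was found. The ER stress response element (ERSE) is spelled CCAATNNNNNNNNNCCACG, in which CCAAT is bound by NF-Y and CCACG by ATF6, and a second form (ERSE-II) is spelled ATTGGNCCACG. Windows of 300 bases, from 250 before to 50 after the start site, were taken from RefSeq on GRCm38.p6. They covered 8 of the 10 genes, without Manf and Hyou1, and both strands were searched for exact matches. ERSE was found in 4 of the 8 windows, those of Hspa5, Hsp90b1, Pdia6 and Creld2, against 39 of all 32851 windows (0.119%), and the window of Hsp90b1 held it at 2 positions. ERSE-II was found in the window of Herpud1, against 12 of all windows (0.0365%). The short CCACG motif alone, which lies inside both elements, was present in all 8 windows and in 32.8% of all windows. The bases upstream of the Hspa5 start site (GRCm38.p6, chr2:34771840-34772089, plus strand) are printed first, followed by each of the other matches with the bases around it on the strand of the gene; capitals mark the element.
Hspa5: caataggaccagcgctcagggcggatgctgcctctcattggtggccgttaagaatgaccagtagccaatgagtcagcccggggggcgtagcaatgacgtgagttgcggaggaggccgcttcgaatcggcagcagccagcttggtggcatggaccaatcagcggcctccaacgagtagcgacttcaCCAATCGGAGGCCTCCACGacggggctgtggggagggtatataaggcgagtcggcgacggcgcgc
Hsp90b1, chr10:86705628-86705666, minus strand: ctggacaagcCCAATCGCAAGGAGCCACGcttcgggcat
Hsp90b1, chr10:86705523-86705561, minus strand: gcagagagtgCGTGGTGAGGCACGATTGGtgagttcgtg
Pdia6, chr12:17266481-17266519, plus strand: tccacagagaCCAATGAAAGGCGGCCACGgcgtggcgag
Creld2, chr15:88819510-88819548, plus strand: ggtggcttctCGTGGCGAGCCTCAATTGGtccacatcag
Herpud1, chr8:94386367-94386397, plus strand: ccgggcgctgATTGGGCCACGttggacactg
The element of Hspa5 started 65 bases before the start site, that of Pdia6 98 bases and that of Herpud1 52 bases before it, all in the orientation of the gene. Of the elements of Hsp90b1, the one 212 bases before the start site had the orientation of the gene and the one 107 bases before it the opposite orientation, as had the element of Creld2, 126 bases before the start site. No ERSE or ERSE-II was found in the windows of Pdia4, Dnajb9 and Sdf2l1. The 10 genes were picked from the response in which these elements act, so matches among them are no independent evidence. The shares over all windows are given as background, and no enrichment was tested. A match of letters is a description of the sequence, and binding was not measured.

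Depth ranged from 14934926 to 20299999 counts on genes (median 16996358), and 3 counts corresponded to between 0.145 and 0.205 CPM (a gene's count scaled to a common library size by TMM), far below the lowest member value of 5.67 CPM. Fkbp5, a gene induced by glucocorticoids, was higher with CORT than with vehicle under isotype (log2 fold change 1.70, SE 0.26, adjusted p = 0.000722). Under αACBP it did not differ by this measure (0.28, SE 0.26, adjusted p = 0.72), so that this check of CORT holds under isotype only. Its means were 39.3 CPM in Isotype + Vehicle, 128 CPM in Isotype + CORT, 63.0 CPM in αACBP + Vehicle and 76.8 CPM in αACBP + CORT. The αACBP + Vehicle group stood apart from both isotype groups in transcripts of the circadian clock. The summed level of 17 clock genes was 1111 to 2089 CPM there (median 1484). It was 490.1 to 850.4 CPM in the Isotype + Vehicle group and 680.4 to 960.3 CPM in the Isotype + CORT group. In the αACBP + CORT group it was 473 to 1255 CPM (median 529), so that the ranges of the αACBP groups overlapped. The hour at which each group was sampled is not given in the sources used here. Replicate 5 of αACBP + Vehicle had the highest normalization factor, 1.29, with the other livers at 1.08 or less. The labelled tissue was borne out by its markers: the 8 hepatocyte markers (Alb, Ttr, Apoa1 and others) summed to between 40354 and 142392 CPM in every liver, while 7 of 8 markers of pancreas, a neighbouring tissue rich in chaperones, were below 0.2 CPM in at least 10 livers, with Amy2a5 at 0 in all. The pancreas markers summed to 5.92 to 24.9 CPM and were not even between livers. Of the 2 that were tested, the lowest log2 fold change was -6.22 with αACBP under CORT and -6.92 with CORT under αACBP. In each of these comparisons 1 had an unadjusted p of 0.05 or less in edgeR's test, and 0 passed the adjustment.

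In the Isotype + Vehicle group, the level per kilobase of transcript was highest for Hsp90b1 at 168 CPM per kb (SD 19.3, n = 5 livers), followed by Hspa5 at 81 ± 20.7 CPM per kb. Herpud1 (65.2 ± 9.76 CPM per kb), Manf (48.8 ± 10.9) and Pdia6 (42.2 ± 10.3) came next. The levels per kb of Pdia4 (23.8 ± 5.35), Creld2 (19.3 ± 4.12), Sdf2l1 (17.7 ± 5.06), Hyou1 (13.2 ± 4.76) and Dnajb9 (8.84 ± 3.28) were lower. Only 2 steps of this order had neighbours whose 5 livers did not overlap, namely from Hsp90b1 to Hspa5 and from Pdia6 to Pdia4. The lengths are those of the canonical transcripts of the GENCODE M39 annotation, which need not be the annotation used for counting. In that annotation, exons of Rabepk on the opposite strand cover 44.5% of the Hspa5 transcript, and pairs in such a stretch can have been counted on both genes. All counts on Rabepk came to 10.1 ± 1.86 CPM in these livers, where Hspa5 stood at 401 ± 103 CPM. Opposite-strand genes cover 20.2% of the Hsp90b1 transcript, 11% of that of Pdia6 and 7.39% of that of Manf, and under 5% of each of the other transcripts.

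**Figure D1:**
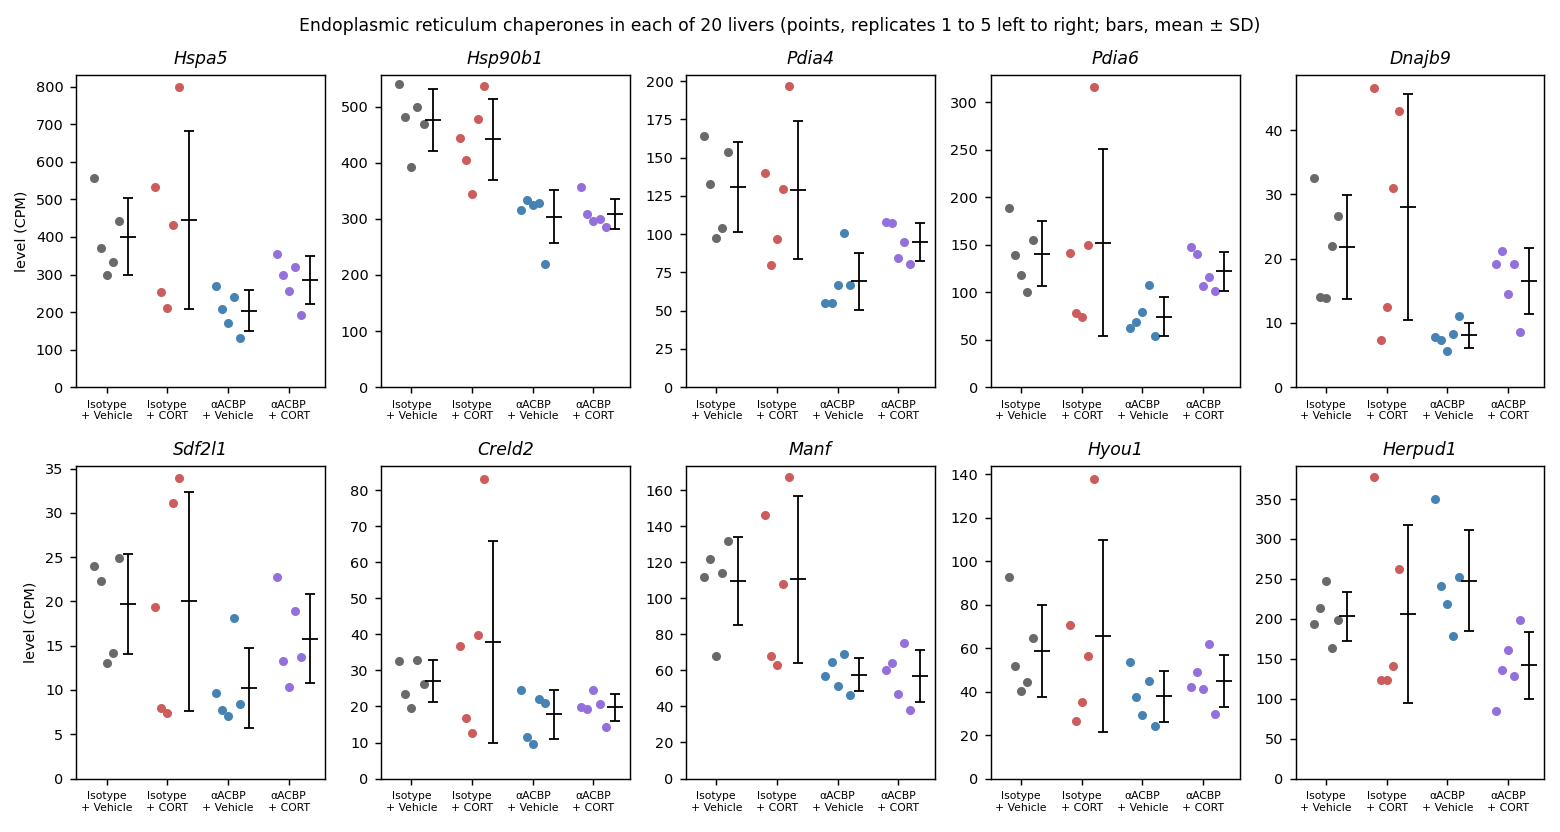
Level in CPM of the 10 genes in each of the 20 livers, 1 panel per gene, with points for replicates 1 to 5 from left to right and bars for the mean ± SD of each group. For Hspa5, Hsp90b1 and Dnajb9 all 5 αACBP + Vehicle livers lie below all 5 Isotype + Vehicle livers, and the Isotype + CORT livers spread the most in 9 of the 10 genes on the log2 scale.

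Without CORT, 5 of the 10 genes were lower with αACBP, namely Hspa5, Hsp90b1, Pdia4, Dnajb9 and Manf, by log2 fold changes between -1.43 and -0.65. Of the others, 4 had lower means that did not pass the adjustment, and Herpud1 had a higher mean. A gene was taken to have passed the adjustment when its p from edgeR's quasi-likelihood test, adjusted after Benjamini and Hochberg, was 0.05 or less, and as changed when its log2 fold change was also at least 1 in size. In this comparison of αACBP with isotype under vehicle, 5.14% of all genes tested passed the adjustment, 2.36% downwards, and 1.30% were changed; of the 10 genes, 5 passed, all downwards, and 1, Dnajb9, was changed. The median log2 fold change of the 10 genes was -0.92 (range -1.43 to 0.29), against -0.02 over all genes tested. The 10 genes were chosen with earlier results of these data known. The values over all genes are therefore background and no independent comparison.

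Hspa5 (BiP) stood at 558, 371, 300.1, 333 and 443 CPM in Isotype + Vehicle replicates 1 to 5. In αACBP + Vehicle the values were 269, 209, 170.5, 239 and 130.2 CPM. The highest antibody-treated liver was below the lowest control, and the log2 fold change was -0.98 (SE 0.28, adjusted p = 0.042), which is a level of 0.508 times that of the controls. Hsp90b1 (GRP94) was at 541, 481, 392, 499.8 and 469 CPM in the controls. With αACBP it was at 316, 333, 324, 328 and 220 CPM, so that 4 livers lay close together and replicate 5 below them, again without overlap with the controls. Its log2 fold change of -0.65 was smaller than that of Hspa5, but so was its error (SE 0.16, adjusted p = 0.0194).

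Dnajb9, the co-chaperone of BiP, had the largest fold change of the 10 genes. Its level was 32.5, 14, 13.9, 21.9 and 26.6 CPM in the controls. In the αACBP + Vehicle livers it was 7.87, 7.28, 5.67, 8.26 and 11.1 CPM, and the groups did not overlap. The log2 fold change was -1.43 (SE 0.39, adjusted p = 0.0363). Groups without overlap in this direction were thus found for 3 of the 10 genes, Hspa5, Hsp90b1 and Dnajb9, and for 3.63% of all genes tested.

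The disulfide isomerase gene Pdia4 was at 164, 133, 97.7, 104 and 154 CPM in the controls. With αACBP it was at 55.0, 55.2, 66.7, 101 and 67.1 CPM, with replicate 4 apart from the other livers and inside the range of the controls. It fell by a log2 fold change of -0.92 (SE 0.21, adjusted p = 0.015). Manf was at 112, 122, 68.1, 114 and 132 CPM in the controls, with replicate 3 the lowest. In the αACBP + Vehicle group it was at 56.8, 64.9, 51.4, 69.0 and 46.5 CPM, and only replicate 4 reached the lowest control. The log2 fold change of Manf was -0.93 (SE 0.24, adjusted p = 0.0248).

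Pdia6, the other disulfide isomerase gene, had a fold change like that of Pdia4 but a larger error. Its controls ranged from 100.5 to 189 CPM (median 139.7) and the αACBP + Vehicle livers from 53.9 to 108 CPM (median 69.1), a log2 fold change of -0.92 (SE 0.30, adjusted p = 0.0701). Sdf2l1 ranged from 13 to 24.9 CPM in the controls and from 7.06 to 18.1 CPM with αACBP (log2 fold change -0.95, SE 0.37, adjusted p = 0.13). Creld2 (-0.60, SE 0.38, adjusted p = 0.394) and Hyou1 (-0.64, SE 0.36, adjusted p = 0.333) overlapped between the groups in 3 and 2 of the 5 antibody-treated livers. Herpud1 was at 163 to 247 CPM in the controls and 179 to 350.2 CPM with αACBP, where 2 livers lay above all controls, and its log2 fold change of 0.29 (SE 0.27, adjusted p = 0.615) did not pass.

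These calls lay close to the threshold. Leaving out single livers moved the number of genes past the adjustment from 5 to 0 without Isotype + Vehicle replicate 1 or 5, to 1 without αACBP + Vehicle replicate 1, to 2 without Isotype + Vehicle replicate 2 or αACBP + Vehicle replicate 5, and to 3 without αACBP + Vehicle replicate 2 or 3. Over all genes, the number went from 826 of 16071 to 195 of 16515 without Isotype + Vehicle replicate 1 and to 183 of 16478 without its replicate 5. It was 228 of 16460 without αACBP + Vehicle replicate 1. It was 268 of 16474 without Isotype + Vehicle replicate 2 and 309 of 16480 without αACBP + Vehicle replicate 5. Without αACBP + Vehicle replicates 2 and 3 it was 646 of 16465 and 684 of 16479. By gene, Hspa5 passed in 10 of the 20 fits that left out 1 liver each. Dnajb9 passed in 12, Manf in 15, Pdia4 in 17 and Hsp90b1 in 18. Hspa5 was also lost without αACBP + CORT replicate 2, 3 or 4, livers outside this comparison. Pdia6 passed in 5 of these fits and Sdf2l1 in 1. The direction of all 10 genes stayed as it was in each of these fits.

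The clock transcripts that set the αACBP + Vehicle group apart from the isotype groups moved with this comparison. Of 17 clock genes, 4 rose and 2 fell. The log2 fold changes were 4.31 for Dbp (SE 1.06, adjusted p = 0.0287), 3.24 for Ciart, 2.11 for Tef and -2.11 for Arntl, the gene of BMAL1 (SE 0.43, adjusted p = 0.0108). The hepatocyte markers summed to 40354 to 94712 CPM in the αACBP + Vehicle livers and to 70897 to 121756 CPM in the Isotype + Vehicle livers, and 0 of 8 passed the adjustment in edgeR's test (4 at an unadjusted p of 0.05 or less, against 20.6% of all genes), with a median log2 fold change of -0.46. In bulk liver, fewer cells of a type and less RNA per cell cannot be told apart. The part of the clock genes and of the hepatocyte markers in the chaperone result was not tested.

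With CORT, Manf was lower with αACBP, and the means of all the other 9 genes were lower too without passing the adjustment. The median log2 fold change of the 10 genes was -0.54 (range -0.96 to -0.31), against 0.01 over all genes tested. In this comparison of αACBP with isotype under CORT, 0.958% of all genes passed the adjustment and 0.597% were changed, against 1 and 0 of the 10 genes, and 5 of the 10 had an unadjusted p of 0.05 or less, as had 12.5% of all genes.

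Manf stood at 146, 67.9, 63.1, 108 and 167 CPM in the Isotype + CORT livers. In the αACBP + CORT livers it was at 60.3, 63.9, 47.1, 75.1 and 38.1 CPM. The 2 low Isotype + CORT livers, replicates 2 and 3, lay within the range of the antibody-treated livers, and 3 of these were below all Isotype + CORT livers. The log2 fold change was -0.96 (SE 0.24, adjusted p = 0.0449), close to that under vehicle. It passed in 5 of the 20 fits that left out 1 liver each, with adjusted p between 0.00828 and 0.153.

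Hsp90b1 was at 444, 405, 345, 478 and 536 CPM in the Isotype + CORT livers. It was at 356, 309, 297, 299.7 and 286 CPM with αACBP and CORT, where 4 of 5 livers were below the lowest liver of the other group. The log2 fold change of -0.51 did not pass (SE 0.16, adjusted p = 0.116). Hspa5 ranged from 212 to 799 CPM in the Isotype + CORT livers and from 191 to 356 CPM in the αACBP + CORT livers (log2 fold change -0.64, SE 0.28, adjusted p = 0.328). Creld2 ranged from 12.6 to 83.1 CPM without and from 14.3 to 24.7 CPM with αACBP (-0.93, SE 0.38, adjusted p = 0.293). For Pdia6 (-0.31, SE 0.29), Sdf2l1 (-0.33, SE 0.36), Hyou1 (-0.54, SE 0.36), Pdia4 (-0.44, SE 0.21), Dnajb9 (-0.76, SE 0.38) and Herpud1 (-0.53, SE 0.27), the adjusted p was between 0.388 and 0.822. None of the 17 clock genes passed in this comparison in edgeR's test, 4 had an unadjusted p of 0.05 or less, and the summed clock level of the αACBP + CORT livers overlapped that of the Isotype + CORT livers.

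The antibody comparisons under vehicle and under CORT use different livers, and their average, which sets 10 αACBP livers against 10 isotype livers, was added after the data had been seen. Over this average 5 of the 10 genes passed, all downwards, and they are the 5 genes that passed under vehicle. The average includes the vehicle livers, so this overlap is partly built in. Of all genes tested, 7.62% passed, 3.76% downwards. The log2 fold change was -0.94 for Manf (SE 0.17, adjusted p = 0.0019), -0.58 for Hsp90b1 (SE 0.11, adjusted p = 0.00343), -0.68 for Pdia4 (SE 0.15, adjusted p = 0.00789), -0.81 for Hspa5 (SE 0.20, adjusted p = 0.0161) and -1.10 for Dnajb9 (SE 0.27, adjusted p = 0.0201). Each of these calls was kept in all 20 fits that left out 1 liver. Creld2 (-0.77, adjusted p = 0.0819), Pdia6 (-0.61, adjusted p = 0.0733), Sdf2l1 (-0.64, adjusted p = 0.133) and Hyou1 (-0.59, adjusted p = 0.165) did not pass, and Herpud1 was at -0.12 (adjusted p = 0.787). Without Isotype + Vehicle replicate 1 and αACBP + Vehicle replicate 5 together, 0 of the 10 genes passed under vehicle and 3 over the average, Hsp90b1, Pdia4 and Manf.

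**Figure D2:**
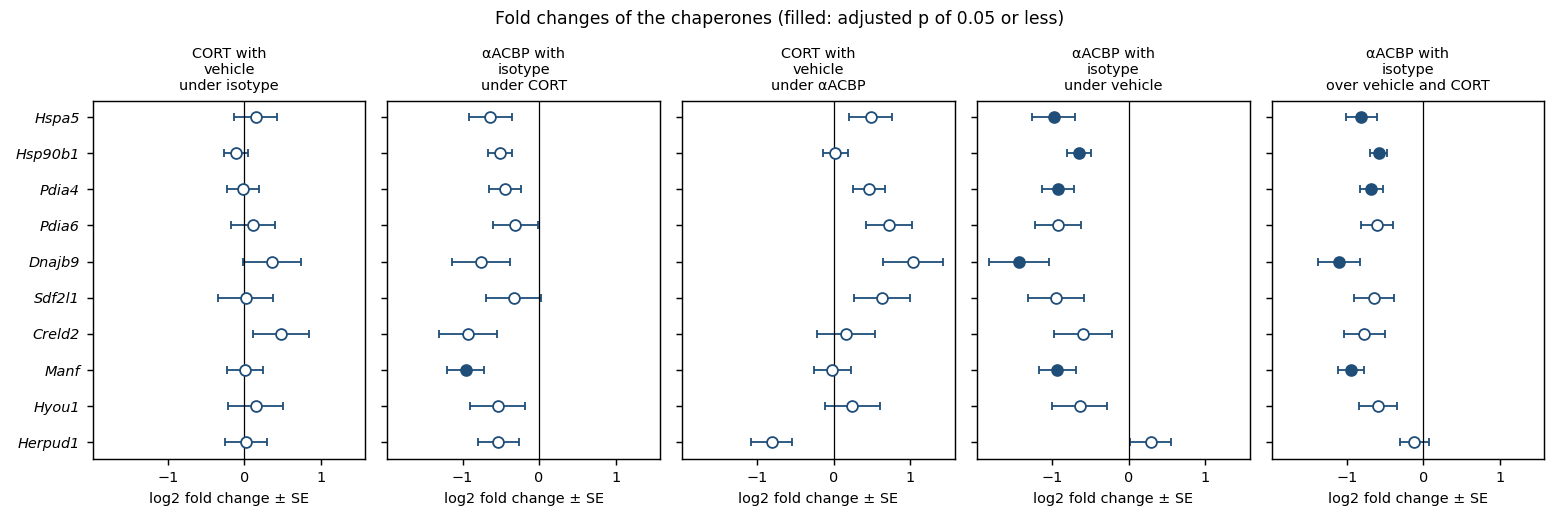
Log2 fold change ± SE of the 10 genes (rows) in 5 comparisons (panels), filled where the adjusted p is 0.05 or less. Filled points lie left of 0 and occur only in the 3 antibody panels, with 1 under CORT and 5 each under vehicle and over the average.

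With CORT, none of the 10 genes passed the adjustment in either direction. Under isotype, 8 means were higher and 2 lower, with a median log2 fold change of 0.07 (range -0.11 to 0.48) against 0.00 over all genes. No gene of the 10 passed in edgeR's test, none in DESeq2's Wald test and none at an unadjusted p of 0.05. Of all genes, 3.2% passed the adjustment in edgeR's test, 1.94% were changed and 15.6% had an unadjusted p of 0.05 or less. In DESeq2's test 949 of 16071 genes passed. The largest value was that of Creld2 (0.48, SE 0.37, adjusted p = 0.626), and that of Hspa5 was 0.15 (SE 0.28, adjusted p = 0.884).

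The Isotype + CORT livers differed widely among themselves. Hspa5 was at 532, 253, 212, 431 and 799 CPM in replicates 1 to 5, Pdia6 at 141, 78.2, 73.6, 150.1 and 316 CPM, and Dnajb9 at 46.6, 7.31, 12.5, 31.0 and 42.9 CPM. Replicate 5 was the highest in 8 of the 10 genes, and the lowest liver was replicate 2 in 4 genes and replicate 3 in the other 6. The summed level of the 10 genes was 1954, 1066, 982, 1596 and 2575 CPM in these livers, a mean of 1635 ± 659 CPM (SD, n = 5). By comparison, it was 1588 ± 244 CPM in Isotype + Vehicle, 1031 ± 142 CPM in αACBP + Vehicle and 1107 ± 103 CPM in αACBP + CORT. On the log2 scale, 9 of the 10 genes had their largest SD in the Isotype + CORT group, as had 42.5% of all genes tested. The median SD of the 10 genes was 0.818 there and 0.353 to 0.368 in the other groups, against 0.526 and 0.382 to 0.481 over all genes.

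**Figure D3:**
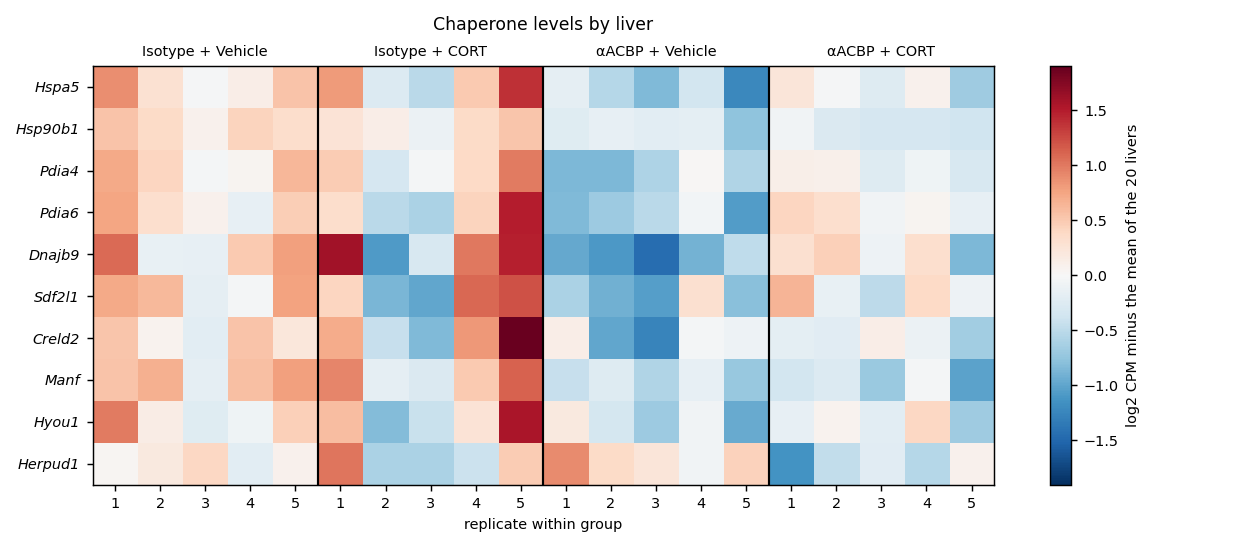
Log2 CPM of the 10 genes (rows) in the 20 livers (columns, by group and replicate), as the difference from the mean of all livers. Isotype + CORT replicate 5 is high and replicates 2 and 3 are low across most rows, most αACBP + Vehicle livers are low, and the Herpud1 row departs from the others.

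Under αACBP, in a comparison that shares the αACBP + Vehicle livers with that of the antibody under vehicle, the means of 8 genes were higher with CORT and those of 2 lower, with a median log2 fold change of 0.35 (range -0.81 to 1.03) against 0.01 over all genes. None passed in edgeR's test or in DESeq2's, while 0.305% of all genes passed in edgeR's test and 0.212% were changed. In DESeq2's test 306 of 16071 genes passed. An unadjusted p of 0.05 or less was found for 4 of the 10 and for 12.7% of all genes. Dnajb9 was at 19.1, 21.2, 14.5, 19.2 and 8.54 CPM in αACBP + CORT, and 4 of these livers were above all αACBP + Vehicle livers (log2 fold change 1.03, SE 0.39, adjusted p = 0.254). Herpud1 was at 85.0, 136, 161, 129 and 199 CPM in αACBP + CORT and at 350.2, 241, 219, 179 and 253 CPM in αACBP + Vehicle. Only replicate 5 of the former reached the range of the latter, and the log2 fold change was -0.81 (SE 0.27, adjusted p = 0.185). Over both antibodies, a comparison also added after the data had been seen, CORT passed for none of the 10 genes with either tool. Of all genes, 4.23% passed in edgeR's test and 1044 of 16071 in DESeq2's. An unadjusted p of 0.05 or less was found for 2 of the 10, Dnajb9 (0.70, SE 0.27) and Herpud1 (-0.39, SE 0.19), and for 18.3% of all genes, a share close to that of the 10.

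All 10 genes had lower means in αACBP + CORT than in Isotype + Vehicle, with a median log2 fold change of -0.45 (range -0.95 to -0.20) against 0.00 over all genes. None passed in edgeR's test, where 0.0809% of all genes passed and 0.0684% were changed, and 2 passed in DESeq2's, where 0.796% of all genes did. An unadjusted p of 0.05 or less was found for 3 of the 10 and for 7.59% of all genes. The 5 livers of Hsp90b1 lay below all controls (log2 fold change -0.62, SE 0.16, adjusted p = 0.121), which held downwards for 1 of the 10 genes and for 1.46% of all genes. Manf had the largest fold change (-0.95, SE 0.24, adjusted p = 0.121).

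Whether the antibody effect differed with CORT was tested by the interaction. It passed for none of the 10 genes with edgeR or DESeq2. Over all genes, 0.143% passed and 0.143% were changed in edgeR's test, and 240 of 16071 passed in DESeq2's. The term was positive for 7 genes and negative for 3, with a median of 0.23 on the log2 scale against 0.03 over all genes. Herpud1 had the only unadjusted p of 0.05 or less (-0.82, SE 0.38, adjusted p = 0.428), against 10.6% of all genes. For Manf the term was -0.03 (SE 0.33), for Hsp90b1 0.13 (SE 0.22), for Dnajb9 0.67 (SE 0.54) and for Creld2 -0.32 (SE 0.53). The errors leave room for differences of either sign in each of these genes.

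Within groups, 9 of the 10 genes varied together from liver to liver. After the group means were subtracted, the 45 pairs had a median Pearson r of 0.74 (range 0.00 to 0.94) over the 20 livers. Each gene's r with the mean of the other 9 was 0.66 for Hsp90b1 and between 0.80 and 0.94 for Hspa5, Hyou1, Pdia6, Manf, Sdf2l1, Pdia4, Dnajb9 and Creld2. Herpud1, the degradation gene, had an r of 0.27. The pair with the highest r was that of Hspa5 and Hyou1, BiP and its exchange factor. These correlations are descriptions: the genes share libraries and depth, and the wide Isotype + CORT livers weigh most in them.

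**Figure D4:**
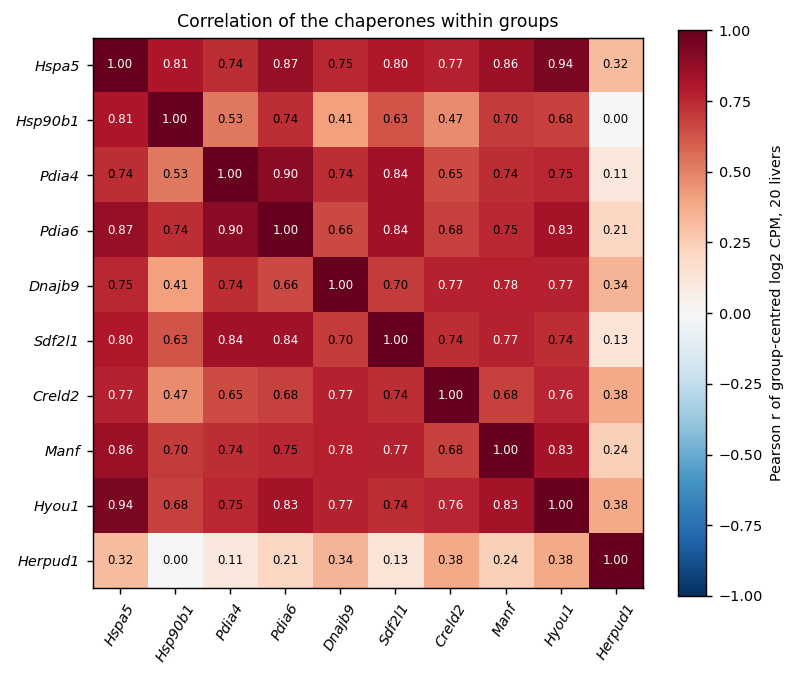
Pearson r between the 10 genes over the 20 livers, computed on log2 CPM after the group means were subtracted. The block of 9 genes ranges from 0.41 for Hsp90b1 with Dnajb9 to 0.94 for Hspa5 with Hyou1, and the Herpud1 row stays at 0.38 or less.

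The genes whose levels followed the 10 most closely were looked for among 13862 other genes with a mean of at least 1 CPM, by Pearson r of group-centred values with the mean of the 10. Among the 10 closest were Spcs2 (r 0.91), a signal peptidase subunit, Cltc (0.91), the clathrin heavy chain, the HSP70-type gene Hspa13 (0.90), the vesicle gene Sec22b (0.89), Sar1b (0.89), a GTPase of vesicles leaving the endoplasmic reticulum, Dnajb11 (0.88), Tmem248 (0.88), Dnajc3 (0.88) and Ufm1 (0.87). Dnajb11 and Dnajc3 encode further J-domain partners of BiP. Spearman's rho lay between 0.79 and 0.91 for these genes, and 4 of the 10 were on the lists of other endoplasmic reticulum genes described below. Of the signalling genes, Atf6 had an r of 0.83 (rank 29) and Xbp1 of 0.64 (rank 591), while Eif2ak3 (0.22), Ern1 (-0.13), Atf4 (-0.31) and Ddit3 (-0.42) did not follow the chaperones.

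Most other folding genes of the compartment also had lower means with αACBP under vehicle. Among 34 other folding enzymes and chaperones, 28 had lower and 6 higher means (median log2 fold change -0.27), and 1 passed, Pdia3, a disulfide isomerase that works with calnexin and calreticulin (-0.83, SE 0.21, adjusted p = 0.0204). That count is near the 2.36% of all genes that passed downwards. Under CORT, 21 were lower and 13 higher (median -0.06), and Ero1lb, an oxidase that supplies disulfide bonds, was the only one to pass (-1.01, SE 0.25, adjusted p = 0.039). Ero1lb had been higher with CORT under isotype (1.02, SE 0.25, adjusted p = 0.0182), with means of 38.3 ± 9.19 CPM in Isotype + Vehicle, 78.0 ± 35.8 CPM in Isotype + CORT, 27.5 ± 5.44 CPM in αACBP + Vehicle and 38.7 ± 7.91 CPM in αACBP + CORT. Both comparisons share the Isotype + CORT livers, so these fold changes are not independent of each other. Over the average of the antibody comparisons 7 of the 34 passed, all downwards, against 3.76% of all genes, among them Hspa13 (-1.09, SE 0.24, adjusted p = 0.00792) and Dnajc3 (-0.72, SE 0.22, adjusted p = 0.0439).

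For degradation of misfolded proteins (ERAD), the pathway of Herpud1, 21 of 28 genes were lower with αACBP under vehicle (median -0.26), and 2 passed downwards, Herpud2 (-1.02, SE 0.28, adjusted p = 0.0338) and Ubxn4 (-0.52, SE 0.15, adjusted p = 0.0418). Under CORT 21 of 28 were lower as well (median -0.25), none passed in edgeR's test, 8 had an unadjusted p of 0.05 or less, and over the average 6 fell. For entry into the compartment, glycosylation and export, 27 of 31 genes were lower with αACBP under vehicle (median -0.47), and 2 passed downwards, the signal peptidase subunit Spcs3 (-0.76, adjusted p = 0.0194) and the oligosaccharyltransferase subunit Stt3b (-0.67, adjusted p = 0.0365). Under CORT 25 of 31 were lower (median -0.25), and Ssr3 (-0.88, SE 0.18, adjusted p = 0.0117) and the coat gene Sec24d (-0.85, SE 0.21, adjusted p = 0.0453) fell. Over the average 8 of 31 fell. With CORT under isotype, Sec62 of this list rose (0.70, SE 0.16, adjusted p = 0.01), and none of the ERAD list passed in edgeR's test (4 at an unadjusted p of 0.05 or less). Under αACBP, CORT passed for none of the folding, ERAD, entry and signalling genes in edgeR's test, with medians of 0.28, 0.19, 0.29 and 0.19 and with 5, 3, 5 and 7 genes at an unadjusted p of 0.05 or less.

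**Figure D5:**
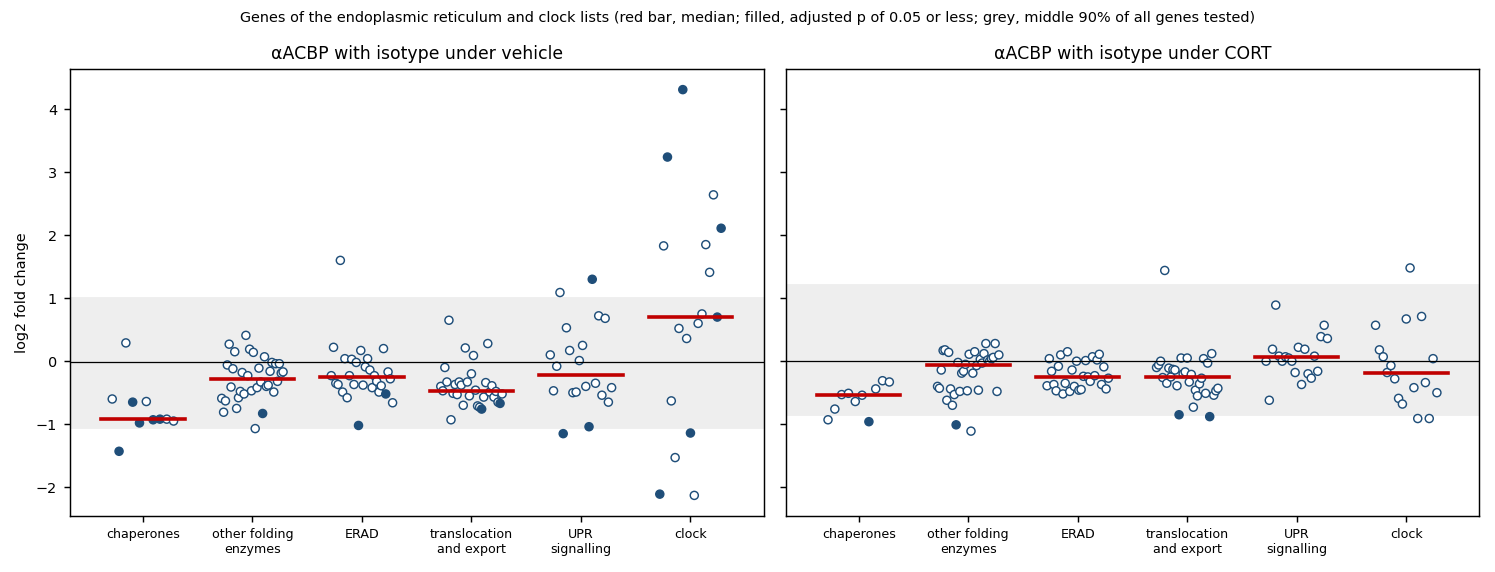
Log2 fold change of each tested gene of 6 lists with αACBP under vehicle (left) and under CORT (right), with the list median as a red bar, filled points at an adjusted p of 0.05 or less, the median of all genes as a line and the middle 90% of all genes in grey. The chaperone medians (-0.92 and -0.54) are the lowest of the 6 in both panels, and the clock genes spread widely under vehicle.

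The genes that signal the UPR were split between directions. Under vehicle, 11 of 20 were lower and 9 higher with αACBP (median -0.21): Creb3l2 (-1.15, SE 0.31, adjusted p = 0.0302) and Nck1 (-1.04, SE 0.30, adjusted p = 0.0434) fell, and Ppp1r15a, whose product GADD34 reverses the translational block set by PERK, rose (1.30, SE 0.27, adjusted p = 0.0086). Under CORT none of the 20 passed in edgeR's test, and 1 had an unadjusted p of 0.05 or less. Atf6 was at 28.8 ± 4.45 CPM in Isotype + Vehicle, 45.6 ± 17.5 CPM in Isotype + CORT, 20.8 ± 1.95 CPM in αACBP + Vehicle and 29.6 ± 9.45 CPM in αACBP + CORT (SD, n = 5 each). In no comparison of single groups did it pass, but it fell with αACBP (-0.55, SE 0.15, adjusted p = 0.0314) and rose with CORT (0.58, SE 0.15, adjusted p = 0.0289) over the averages. Xbp1, the transcription factor of the IRE1 arm, was at -0.42 with αACBP under vehicle (adjusted p = 0.204) and at 0.36 under CORT (adjusted p = 0.456), and gene counts do not separate the spliced mRNA that IRE1 makes. For the PERK arm, Atf4 (0.10, adjusted p = 0.833) and Ddit3 (0.17, adjusted p = 0.693) were near 0 under vehicle, Eif2ak3 was at -0.49 (adjusted p = 0.393) and Ern1 at 0.01 (adjusted p = 0.985). Creb3l3, a transcription factor of hepatocytes, rose with CORT under isotype (0.73, SE 0.18, adjusted p = 0.0174).

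The fold changes can be set beside the promoter elements. Of the genes with ERSE in their windows, the log2 fold changes with αACBP under vehicle were -0.98 for Hspa5, -0.92 for Pdia6, -0.65 for Hsp90b1 and -0.60 for Creld2. Of those whose windows held no exact match to either element, they were -1.43 for Dnajb9, -0.95 for Sdf2l1 and -0.92 for Pdia4. Variant spellings and bases outside the windows were not searched. Herpud1, whose window held ERSE-II and no ERSE, was at 0.29. Outside the 10 genes, ERSE or ERSE-II was present in the windows of 44 genes, of which 23 were tested. Of these 23, 14 were lower and 9 higher with αACBP under vehicle (median -0.27), and 1 fell, Hnrnpa3. Over the average of the antibody comparisons 4 fell, Calr, Dnajb11, Dnajc3 and Hnrnpa3, of which Calr, Dnajb11 and Dnajc3 are folding genes of the compartment.

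Markers of other liver cells were set beside these results. Macrophage markers summed to 422 to 835 CPM in Isotype + Vehicle, 151 to 429 CPM in Isotype + CORT, 544 to 929 CPM in αACBP + Vehicle and 552 to 753 CPM in αACBP + CORT. With CORT under isotype 6 of the 9 fell, and with αACBP under CORT 3 of 9 rose, in comparisons that share the Isotype + CORT livers. With αACBP under vehicle, 7 of the 9 macrophage markers were lower and 2 higher (median log2 fold change -0.32). None of them passed there in edgeR's test, and 2 had an unadjusted p of 0.05 or less. Clec4f, at 189 CPM in Isotype + Vehicle and 313 CPM in αACBP + Vehicle on average, was the highest (0.73, SE 0.23). The 10 markers of B and plasma cells, a cell type rich in chaperones, summed to 68.2 to 106 CPM in Isotype + Vehicle, 11 to 45.4 CPM in Isotype + CORT, 34.5 to 104 CPM in αACBP + Vehicle and 22.1 to 50.7 CPM in αACBP + CORT, and Tnfrsf17 was at 0 in all livers. With CORT under isotype 2 of the 9 tested fell, the immunoglobulin genes Ighm (-2.55, SE 0.43, adjusted p = 0.0017) and Igkc (-1.71, SE 0.44, adjusted p = 0.0355), while in edgeR's test of either antibody comparison of single groups none passed, with 0 at an unadjusted p of 0.05 or less. T cell, NK cell and neutrophil markers summed to 8.02 to 28.9 CPM over all livers, and 0 of 8 passed in edgeR's test of either antibody comparison of single groups, with 0 and 2 at an unadjusted p of 0.05 or less under vehicle and CORT. Endothelial, stellate and bile duct markers summed to 274 to 438 CPM, and 2 of 12, Lrat and Dcn of stellate cells, fell with αACBP under vehicle. The part of these cells in the chaperone results was not tested.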

How the data were processed

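The authors aligned paired reads with HISAT2, to GRCm39 according to the study's methods and to mm10 per the labels, and counted pairs on genes with HTSeq in union mode, features that are not unique included. Strand setting and annotation release are not given in the sources used here. They deposited raw counts per gene and liver, which were used as they are. No column was without a sample. Pairs not counted on a gene (59.6 to 63.4%) were left out.

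Counts were analysed in R 4.3.3 with edgeR 4.0.16: filterByExpr, TMM normalization and the robust quasi-likelihood test, in 1 model of the 4 groups with p-values adjusted over 16071 genes by the Benjamini-Hochberg method. CPM are TMM-scaled, and fold changes come from the fit. The p-values test a difference between groups against the spread between mice. The 4 groups share 1 estimate of that spread per gene, although the Isotype + CORT livers spread more. The mice were group-housed and took CORT or vehicle with the drinking water. The model holds no term for the cage and treats mice as independent. The limits (adjusted p of 0.05, log2 fold change of 1) are those of the study, which does not say whether P was adjusted. The common biological coefficient of variation was 0.481. All 40 pairs of livers within a group differed beyond counting noise (chi-square per degree of freedom of at least 12.4). Floors cover counting error only.

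Members, gene lists and markers were chosen with earlier results of these data known. Beside the 10 genes, the text names genes of each list that passed the adjustment (up to 4 per list and comparison by size), 6 signalling genes, Dbi and Fkbp5 as checks, and the genes most like the members, of which 1 is not reported here; Rabepk was added for its overlap, and genes with a promoter element are named where they passed. In edgeR's test, Dbi was at -0.19 (SE 0.21, adjusted p = 0.762) with CORT under isotype and at 0.38 (SE 0.21, adjusted p = 0.454) under αACBP. With αACBP it was at -0.61 (SE 0.21, adjusted p = 0.0803) under vehicle and at -0.03 (SE 0.21, adjusted p = 0.985) under CORT. Of the list names, 9 were matched to older symbols through RefSeq. Alternatives were DESeq2 1.42.0, its size factors, other filters, library sizes without the 20 most abundant genes, only the groups compared, unadjusted P, the replicate number as a block and each liver left out. The programs were tested on simulated counts.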

Additional observations from a re-analysis of the deposited data

Results flagged for a closer look

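In each group of 5 livers, the highest and the lowest value of each of the 10 genes was compared with the nearest of the others by Dixon's criterion (critical value 0.71), in 40 groups. About 1 in 20 groups would be picked by chance, and 3 were, all in αACBP + Vehicle. The Hsp90b1 level of replicate 5 was 220 CPM, with the nearest liver at 316 CPM. The Pdia4 level of replicate 4 was 101 CPM, with the nearest at 67.1 CPM. The Sdf2l1 level of the same liver was 18.1 CPM, with the nearest at 9.66 CPM.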

How the results depend on the processing

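The calls under αACBP changed with single livers and lie near the threshold, and all 10 genes lie far above the floor that the depth sets. With αACBP under CORT, the number of the 10 genes past the adjustment was 2 with DESeq2, 5 at unadjusted P, and 0 with only the groups compared, with the replicate number as a block and without Isotype + Vehicle replicate 1 and αACBP + Vehicle replicate 5. Over all genes, it was 430, 2006, 28, 121 and 174 in these settings in turn, against 154 in the main fit. Under vehicle, the number of the 10 genes was 3 with no filter beyond 1 count and 0 without these 2 livers, with 0 changed in both. Over all genes, it was 706 of 24419 and 80 of 16406. For αACBP + CORT against Isotype + Vehicle, the number of the 10 genes was 2 with DESeq2, 3 at unadjusted P and 2 with only these groups. Over all genes, it was 128 of 16071, 1220 of 16071 and 135 of 14759. At unadjusted P, the number of the 10 genes was 4 (1 changed) for CORT under αACBP, 1 for the interaction, 9 for αACBP and 2 for CORT over the averages. The shares over all genes were 12.7%, 10.6%, 22.4% and 18.3%. Without the 2 livers, αACBP over the average gave 3 of the 10 genes, and 449 of 16406 over all genes. With each liver left out, the number of the 10 genes past the adjustment ranged from 0 to 6 for αACBP under vehicle (0 to 5 changed), 0 to 1 for αACBP under CORT (0 to 1 changed), 0 to 1 for αACBP + CORT against Isotype + Vehicle, 5 to 8 for αACBP and 0 to 1 for CORT over the averages. Over all genes, the ranges were 183 to 1315 (87 to 343 changed) and 61 to 316 (52 to 191 changed) for αACBP under vehicle and CORT. They were 1 to 31 for αACBP + CORT against Isotype + Vehicle, and 592 to 1574 for αACBP and 388 to 920 for CORT over the averages. Apart from the alternatives built on fewer livers or no adjustment, the cause was not tested.

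The numbers do not pair livers: same-numbered livers had correlations of deviations between -0.0999 and 0.0969, and 4 of 20 livers correlated best with their own number. The block kept the count under vehicle at 5 and turned the signs, with CORT under isotype, of Sdf2l1 (-0.17), Manf (-0.01) and Herpud1 (-0.07), and in the interaction of Creld2 (0.02). The other changes of sign were of values that had not passed the adjustment. With CORT under isotype, library sizes without the 20 most abundant genes gave -0.07 for Sdf2l1, -0.07 for Manf and -0.04 for Herpud1. Without the 2 livers it was 0.04 for Pdia4, -0.01 for Manf and -0.03 for Herpud1, and for Manf it was -0.01 with no filter and with only the groups compared. With CORT under αACBP, Hsp90b1 was at 0.00 with at least 10 counts in every liver, at -0.06 without the abundant genes and at -0.07 without the 2 livers, and the Hyou1 interaction was -0.23 without the 2 livers. Leaving out single livers gave, with CORT under isotype, -0.17 to 0.33 for Hspa5, -0.23 to 0.10 for Pdia4, -0.35 to 0.29 for Pdia6, -0.26 to 0.23 for Sdf2l1, -0.04 to 0.71 for Creld2, -0.19 to 0.15 for Manf, -0.32 to 0.38 for Hyou1 and -0.34 to 0.15 for Herpud1. It gave -0.48 to 0.14 for Pdia6 with αACBP under CORT, and -0.07 to 0.06 for Hsp90b1 and -0.14 to 0.10 for Manf with CORT under αACBP. For the interaction it gave -0.55 to 0.19 for Creld2, -0.17 to 0.17 for Manf and -0.13 to 0.56 for Hyou1. Over the averages it gave -0.20 to 0.05 for Herpud1 with αACBP, and -0.11 to 0.07 for Manf and -0.04 to 0.31 for Hyou1 with CORT.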
